A study of Saccharomyces cerevisiae with 12 samples.

Results

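The 35 nuclear genes described here encode subunits of the mitochondrial respiratory chain and of the ATP synthase of baker's yeast, Saccharomyces cerevisiae. They were chosen by gene symbol from a given list, and the brightest probe set of each gene, by its mean over the 12 arrays, stands for it. All 35 had a probe set of their own, among 5656 genes with one, and 9275 probe sets were tested. Each array measured total RNA of 1 glucose-limited chemostat culture, a continuous culture held at a fixed growth rate, and the arrays fall into 4 groups of 3 cultures. The reference was CEN.PK113-7D (MATa MAL2-8C SUC2), a prototrophic laboratory strain, grown with air in one group and under nitrogen in another. IMZ305 was grown with air. It lacked ald2 to ald6, acs1 and acs2, with LEU2, HIS3, KanMX4, hphNT1, natNT2 and AmdS in place of the deleted loci, and carried the plasmid pUDE151 with URA3 and eutE of Escherichia coli. IMZ383 was grown without oxygen. It lacked acs1 and acs2, replaced by LEU2 and HIS3, and carried the plasmid pUDE204 with URA3 and the E. coli genes pflB and pflA. Both engineered strains descend from CEN.PK102-12A, which carries ura3-52, his3-Δ1 and a leu2 mutation, so background, marker genes and plasmid differed from the reference along with the acetyl-CoA pathway. All cultures ran at 0.1 per h, 30 °C and pH 5.0. The aerobic feed held 7.5 g/L glucose. The anaerobic feed held 20 g/L glucose, 10 mg/L ergosterol and 420 mg/L Tween 80, and another antifoam, so oxygen and medium cannot be told apart in these cultures.

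Yeast has no proton-pumping complex I. Single-subunit dehydrogenases pass electrons from NADH to ubiquinone instead, NDI1 from the matrix side and NDE1 and NDE2 from the cytosolic side, and succinate dehydrogenase (complex II) feeds the same pool. The cytochrome bc1 complex (III) and cytochrome c oxidase (IV) carry electrons on to oxygen while pumping protons, and the ATP synthase (V) uses the proton gradient, with a catalytic F1 head joined by stalks to the membrane part Fo. Without oxygen the chain has no terminal acceptor, while the ATP synthase can run backwards as an ATPase.

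Deposited signals are on a linear scale, and the arrays share a common level. Trimmed by 2% at each end, the mean signal was 149.9 on every array, and changes are therefore relative to the level of the array. The highest of 19 non-target control probe sets read 2.6 to 7.5 on an array. Replicate arrays correlated at 0.966 or more in every group (Pearson, across probe sets, which are not independent). BioB, a spike added at hybridization, split the arrays. It was at most 11.9 on all 3 IMZ305 arrays and stood at 42.9 or above on all anaerobic arrays and on aerobic reference 3, with aerobic reference 1 and 2 on the low side. The ratio of 3' to 5' signal of ACT1 was 1.67 to 1.90 in the anaerobic reference, 1.37 to 1.47 in IMZ383, 1.24 to 1.96 in the aerobic reference and 1.61 to 1.65 in IMZ305. ACS2, deleted in both engineered strains, read 647.9 to 863.9 in the aerobic and 558.5 to 652.4 in the anaerobic reference, 1.4 to 2.1 in IMZ305 and 3.3 to 6.1 in IMZ383, as the labels state. Signals of a bulk culture do not separate fewer expressing cells from less RNA per cell.

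Transcripts of the respiratory chain were lower without oxygen. Comparing the reference without and with oxygen, 31 of the 35 genes fell and none rose (limma, Benjamini-Hochberg adjusted p under 0.05 over 9275 probe sets), and the other 4 also had a negative change. Over all tested probe sets, 34.2% were called in this comparison, 23.3% lower and 11% higher. The median change of the 35 genes was -1.09 on the log2 scale, with a range from -4.18 to -0.32, beside a median of -0.18 over all probe sets. In 31 genes every anaerobic signal lay below every aerobic one, which held for 28.8% of all probe sets. By group of genes, the median log2 change was -3.54 for the 3 NADH dehydrogenases, -1.27 for complex II, -1.38 for complex III, -1.09 for complex IV, -0.60 for the F1 head of complex V and -0.80 for its stalk and Fo subunits. No test was made between these medians, which come from 3 to 9 genes each. Centring each array on its median moved the median of all probe sets to 0.22, and then 21 of the 35 genes were called lower and 0 higher, with a median of -0.69. Under that centring 24% of all probe sets were called higher and 11.5% lower, and under quantile normalization 14.1% and 14.7%, with 32 of the 35 genes lower. Of the 10 calls that median centring ended, 8 were of ATP synthase genes, and the others were QCR2 and COX9.

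**Figure D1:**
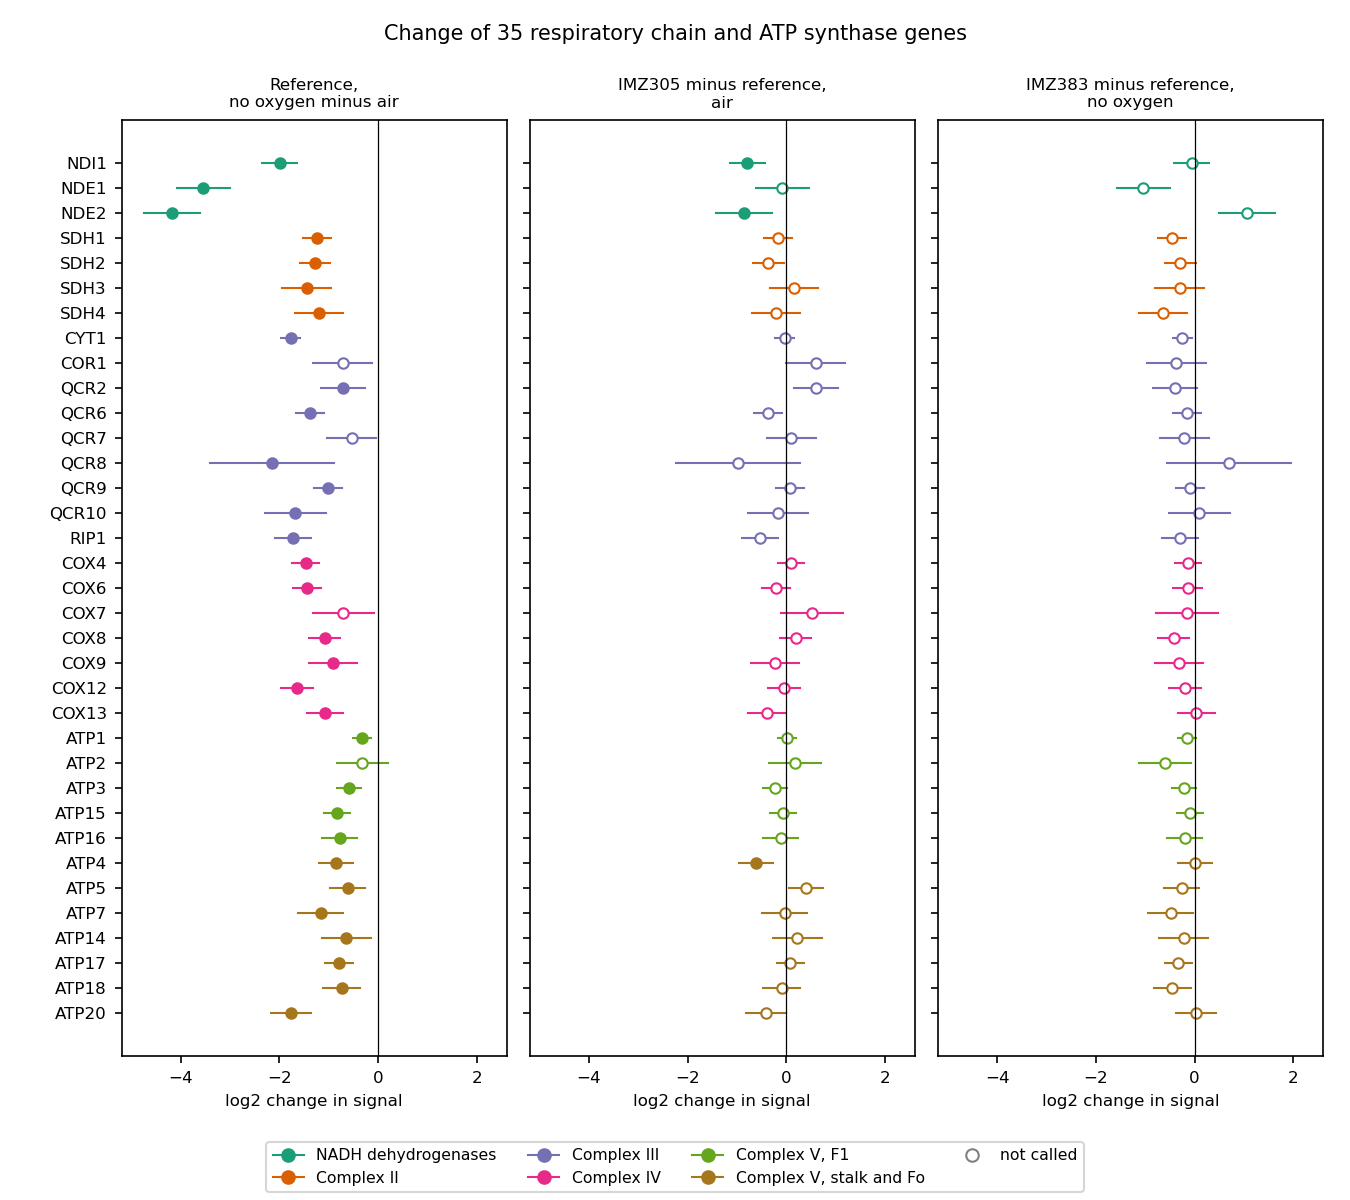
Log2 change in signal of each of the 35 genes (rows, coloured by complex) in the oxygen comparison and in both strain comparisons. Points are limma estimates from 3 cultures a group, lines their 95% confidence intervals, and filled points are called at an adjusted p under 0.05. In the left panel 31 points are filled and all lie left of 0. The middle panel has 3 filled points and the right panel has 0.

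The NADH dehydrogenases fell furthest among the groups of genes. NDE2, one of the external enzymes that oxidize cytosolic NADH, read 431.9, 454.7 and 262.7 in the aerobic reference and 25.2, 20 and 17.3 in the anaerobic reference. Aerobic culture 3 was the lowest of its group, and still lay far above every anaerobic value. The fall was 18.1-fold (log2 change -4.18, SE 0.25, limma adjusted p = 2.89e-06). NDE1, the other external enzyme, went from 2352.1, 1483.3 and 1551.4 to 122.6, 178.5 and 156.5, with aerobic culture 1 well above the other two and with no overlap. It fell 11.6-fold (log2 change -3.54, SE 0.24, limma adjusted p = 5.7e-06). NDI1, the internal enzyme that oxidizes matrix NADH, went from 983.9, 832.2 and 818 to 263.6, 184 and 216.6. The groups were again apart, and the fall was 3.99-fold (log2 change -2.0, SE 0.16, limma adjusted p = 1.62e-05). Among the 9275 probe sets, 46 had a more negative change than NDE2, 73 than NDE1 and 291 than NDI1.

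**Figure D2:**
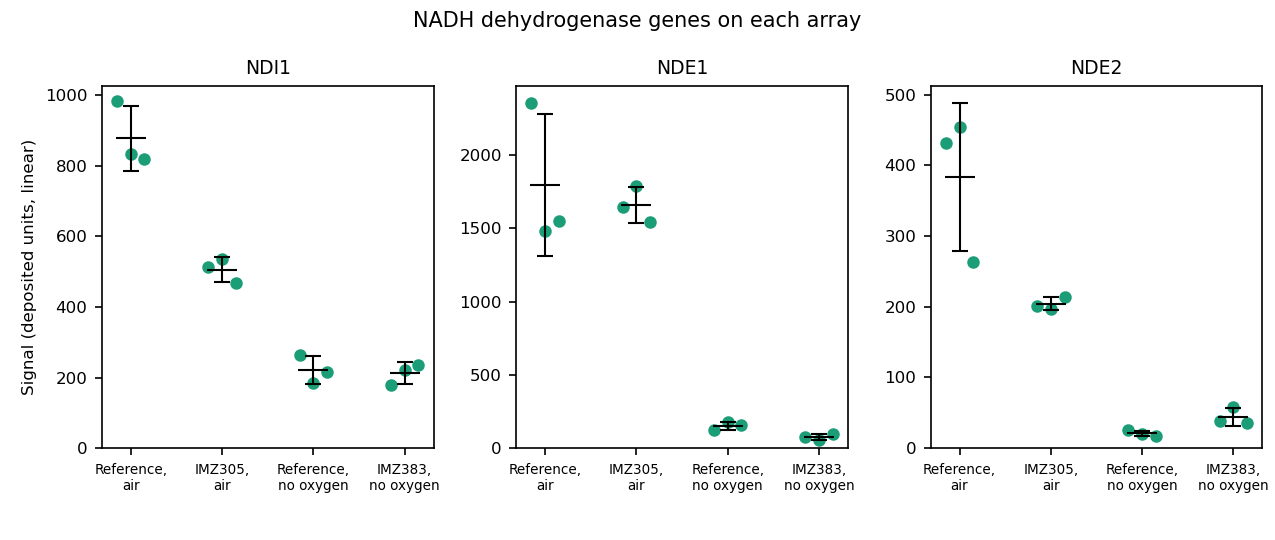
Deposited signal (linear axis from 0) of the 3 NADH dehydrogenase genes on each of the 12 arrays. Points are cultures, the horizontal mark and bars the mean and SD of 3 cultures. NDE1 and NDE2 lie near the bottom of their panels on every anaerobic array, and NDE2 is the gene whose strain difference points down with air and up without oxygen.

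All 4 genes of succinate dehydrogenase, the enzyme shared by the citric acid cycle and the chain, fell, by 2.3- to 2.73-fold. SDH1, the flavoprotein subunit, read 646.1, 640.6 and 679.2 with oxygen and 282.6, 263.1 and 282.9 without. Its values were tight within both groups, and the fall was 2.37-fold (log2 change -1.25, SE 0.13, limma adjusted p = 7.58e-05). SDH2, the iron-sulfur subunit, went from 2891.6, 2288.3 and 2476.9 to 1153.7, 1035.5 and 946.9, with no overlap between the groups. It fell 2.44-fold (log2 change -1.29, SE 0.14, limma adjusted p = 0.000105). The membrane anchor subunits SDH3 and SDH4 fell 2.73-fold (adjusted p = 0.000857) and 2.3-fold (adjusted p = 0.00222).

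Complex III held members with large falls beside 2 that were not called. CYT1, cytochrome c1, read 888.5, 995 and 930.8 with oxygen and 278.4, 262.8 and 279.6 without. Replicates differed little, and the 3.43-fold fall (log2 change -1.78, SE 0.09, limma adjusted p = 6.92e-07) had the lowest adjusted p of the 35 genes. QCR6, the acidic subunit next to cytochrome c1, went from 1521, 1271.8 and 1450.4 to 538.2, 601.2 and 496.5, with the groups apart. It fell 2.59-fold (log2 change -1.38, SE 0.13, limma adjusted p = 4.35e-05). RIP1, the Rieske iron-sulfur protein, fell 3.31-fold (adjusted p = 4.81e-05), from 2198.2, 1919.9 and 1550.1 to 604.1, 496.1 and 603.8. A second RIP1 probe set among the control probe sets of the array, left out of the tests, read 602.8, 979.1 and 715.5 with oxygen and 313.9, 124.1 and 306 without, a difference of -1.72 in mean log2 signal. Of the small subunits, QCR10 fell 3.2-fold (adjusted p = 0.00131) and QCR9 2.03-fold (adjusted p = 0.000236). QCR8 was dim, with 41.1, 47.7 and 31.3 with oxygen and 21.4, 7 and 4.6 without, where 1 of 3 arrays lay above its highest non-target control. Its 4.47-fold fall (adjusted p = 0.0148) was not called without anaerobic reference 3, and its other probe set had a mean of 0.567, below background.

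The core subunits, which face the matrix, and the small subunit QCR7 had smaller changes. QCR2 fell 1.63-fold, from 757.1, 871.8 and 966 to 544.9, 516.1 and 520.2 (adjusted p = 0.0219). Omitting aerobic reference 2 or 3, or anaerobic reference 2 or 3, ended that call. COR1 read 211.7, 396.8 and 299.4 with oxygen and 229.9, 129.2 and 188.9 without. The groups overlapped through aerobic culture 1 and anaerobic culture 1, and the change of -0.72 (SE 0.27, limma adjusted p = 0.0631) was not called. QCR7 read 2354.8, 1365.6 and 2469.9 with oxygen and 1455.1, 1433.2 and 1238.6 without. Aerobic culture 2 lay within the anaerobic range, and the change of -0.54 (SE 0.22, limma adjusted p = 0.0902) was not called.

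In complex IV, 6 of 7 nuclear subunits fell. COX4, a zinc-binding subunit, read 1172.4, 1093.6 and 1213.9 with oxygen and 439.9, 421.4 and 393.8 without. The groups were far apart, and the fall was 2.77-fold (log2 change -1.47, SE 0.12, limma adjusted p = 2.17e-05). COX6 went from 1400.6, 1410 and 1209.9 to 505.3, 512.9 and 452.4, again without overlap. It fell 2.73-fold (log2 change -1.45, SE 0.13, limma adjusted p = 3.13e-05). COX12, on the intermembrane space side, fell 3.13-fold (adjusted p = 3.15e-05). The small subunits COX8 and COX13 fell 2.13-fold (adjusted p = 0.000345) and 2.11-fold (adjusted p = 0.000931). COX9 fell 1.9-fold (adjusted p = 0.00907). COX7 read 824.3, 1846.1 and 1364.8 with oxygen and 976.5, 670.9 and 733.1 without. Aerobic culture 1 lay below anaerobic culture 1, and the change of -0.70 (SE 0.28, limma adjusted p = 0.0802) was not called. Without aerobic reference 1, COX7 and COR1 were both called, and COR1 also without anaerobic reference 1.

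The 12 genes of the ATP synthase had a median change of -0.76. Its catalytic subunits ATP1 (alpha) and ATP2 (beta) had the changes nearest to 0 of the 35 genes. ATP1 read 1104, 1009 and 1179.9 with oxygen and 900, 845.9 and 883.6 without. These groups did not overlap and the 1.25-fold fall was called (log2 change -0.32, SE 0.08, limma adjusted p = 0.0128), but when each array was centred on its median the change was 0.07 (adjusted p = 0.683). ATP2 read 1064.5, 935.2 and 1060.6 with oxygen and 827.4, 724.6 and 900.6 without. Its groups did not overlap either, and the change of -0.32 (SE 0.23, limma adjusted p = 0.329) was not called. The central stalk subunits fell: ATP15 (epsilon) went from 1829.7, 1661.6 and 1989.3 to 998.2, 1074.1 and 984.4, 1.79-fold lower (log2 change -0.84, SE 0.11, limma adjusted p = 0.00048). ATP3 (gamma) went from 1513.1, 1694.4 and 1906.8 to 1143.4, 1055.8 and 1161.9, 1.52-fold lower (log2 change -0.60, SE 0.11, limma adjusted p = 0.0023). Both pairs of groups were apart. ATP16 (delta) fell 1.72-fold (adjusted p = 0.00417). Median centring ended the calls of ATP3 and ATP16 too, and ATP15 kept its call.

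All 7 genes of the peripheral stalk and Fo fell on the deposited scale. With each array centred on its median, 5 of the 7 calls ended (ATP4, ATP5, ATP14, ATP17 and ATP18), and ATP7 and ATP20 stayed called. ATP20, subunit g, which lies in the membrane where synthase dimers meet, read 174.3, 244.4 and 212 with oxygen and 55.1, 69.8 and 58.8 without. The groups were far apart, and the 3.42-fold fall was the largest of the 12 synthase genes (log2 change -1.77, SE 0.18, limma adjusted p = 8.2e-05). ATP17, subunit f, went from 650.9, 691.8 and 588.2 to 379.9, 390.8 and 339.9, with no overlap. It fell 1.74-fold (log2 change -0.80, SE 0.12, limma adjusted p = 0.000984). Of the peripheral stalk, ATP7 (subunit d) fell 2.25-fold (adjusted p = 0.00187), ATP4 (subunit b) 1.81-fold (adjusted p = 0.00217) and ATP5 (OSCP) 1.54-fold (adjusted p = 0.0129). ATP18, another Fo subunit, fell 1.67-fold (adjusted p = 0.00682). ATP14 (subunit h) read 811.1, 1356.1 and 1337.7 with oxygen and 910.5, 697.2 and 607.4 without. Its groups overlapped through aerobic culture 1, and the 1.56-fold fall was at the threshold (adjusted p = 0.0495). It was no longer called when any single array other than aerobic reference 1 and anaerobic reference 1 was omitted. A second ATP14 probe set fell by 0.74 on the log2 scale (adjusted p = 0.00382).

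**Figure D3:**
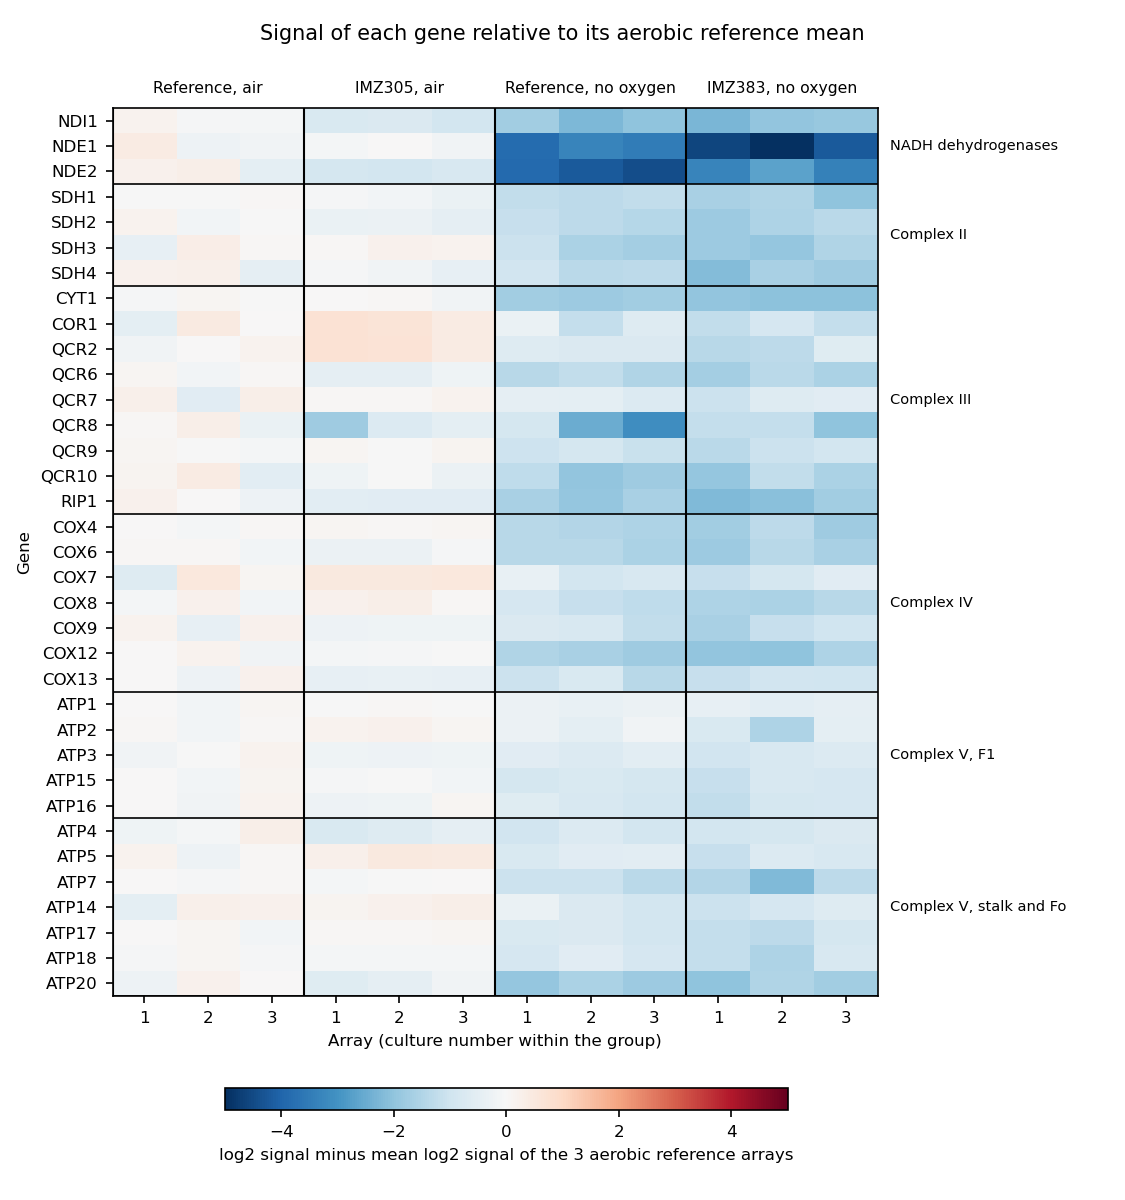
Each cell shows the log2 signal of a gene (row) on an array (column) minus that gene's mean log2 signal in the 3 aerobic reference cultures, blue for lower and red for higher. Every anaerobic column is blue over most rows, darkest for NDE1 and NDE2 and palest for ATP1. In the IMZ305 columns NDI1 and NDE2 are pale blue, and COR1 and QCR2 are pale red.

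All anaerobic arrays lay below all aerobic ones in the median of these genes. Relative to the aerobic reference mean, the median log2 signal over the 35 genes was -0.98, -1.14 and -1.26 on the 3 anaerobic reference arrays and -1.47, -1.32 and -1.29 on the 3 IMZ383 arrays, each of which lay below each anaerobic reference array. On the aerobic arrays it lay between -0.10 and 0.04. The spread between replicates, as the median SD of log2 signal over the genes, was 0.19 in the aerobic reference, 0.08 in IMZ305, 0.15 in the anaerobic reference and 0.25 in IMZ383. BioB moved with oxygen in these samples, since 2 of the 3 aerobic reference arrays were low and all anaerobic arrays were high. The oxygen and strain comparisons share the reference arrays. Within the arrays of high BioB (aerobic reference 3 against the 3 anaerobic reference arrays, with the lone array assumed to vary like the others), 21 genes were called lower and 0 higher, and all 35 changes were negative. The calls lost were SDH4, QCR2, QCR8, QCR10, COX9, ATP5, ATP7, ATP14, ATP17 and ATP18. NDE2 changed by -3.67, NDE1 by -3.36 and NDI1 by -1.90. That restriction was chosen after seeing the data, and with 1 aerobic array left the spread of that group is not measured.

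A comparison of the engineered strains with each other was added after seeing the data. Its log2 changes use none of the reference arrays, while its SE and adjusted p rest on the spread over all 12 arrays. Between IMZ383 without oxygen and IMZ305 with air, 33 of the 35 genes were lower and 0 higher, beside 26.1% of all probe sets called, 16% lower and 10.1% higher. The groups were apart, with IMZ383 lower, for 33 genes and for 26.9% of all probe sets. The median change was -1.28. NDE1 was 22.6-fold lower (log2 change -4.50, SE 0.24, limma adjusted p = 2.09e-06), NDE2 4.77-fold (log2 change -2.25, SE 0.25, limma adjusted p = 0.000227) and NDI1 2.4-fold (log2 change -1.26, SE 0.16, limma adjusted p = 0.000403). The 2 genes not called were QCR8 (-0.49) and ATP4 (-0.22). COR1, QCR7, COX7 and ATP2, which were not called between the reference groups, were called lower here. Strain, oxygen and feed differ together in this contrast and cannot be told apart. BioB (7.9 to 11.9 in IMZ305, 42.9 to 86.2 in IMZ383) and the ACT1 ratio also differed without overlap between these groups, and their part was not tested.

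The eutE strain IMZ305 was set against the aerobic reference. Its deletions, marker genes, plasmid and background differ together in this contrast, so the part of eutE cannot be told apart. Of the 35 genes, 3 fell, none rose and 32 were not called. Over all probe sets 14.4% were called, 8.3% lower and 6.09% higher. The part of the 35 genes called lower was thus near that of all probe sets. Without overlap between the groups, 11 genes were lower, beside 16.6% of all probe sets, and 4 higher, beside 15%. The median change was -0.09, beside 0 over all probe sets, and 22 of the 35 changes were negative. For 29 of the 35 genes the 95% confidence interval of the change lay within 1 log2 unit of 0.

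NDI1 fell from 983.9, 832.2 and 818 in the reference to 513.9, 535.3 and 468.4 in IMZ305. Every IMZ305 value lay below every reference value, and the fall was 1.73-fold (log2 change -0.79, SE 0.16, limma adjusted p = 0.0111). It was called under every alternative tried. NDE2 went from 431.9, 454.7 and 262.7 to 201, 197.3 and 214.3, with the groups apart but reference culture 3 close to IMZ305. The fall was 1.82-fold (log2 change -0.87, SE 0.25, limma adjusted p = 0.0498), at the threshold, and omitting any single array other than aerobic reference 3 and IMZ383 culture 2 ended the call. NDE1 read 1642.2, 1786.4 and 1539.9 in IMZ305, within the reference range, a change of -0.09 (SE 0.24, limma adjusted p = 0.871). Without aerobic reference 3, the only aerobic array of high BioB, NDI1 changed by -0.84 (limma adjusted p = 0.0229) and NDE2 by -1.12 (limma adjusted p = 0.0179). The spread in that fit still included the anaerobic arrays, all of high BioB.

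ATP4, subunit b of the peripheral stalk, read 532, 590.8 and 772.2 in the reference and 366.2, 396.7 and 461.1 in IMZ305. All IMZ305 values were lower, and the fall was 1.54-fold (log2 change -0.62, SE 0.15, limma adjusted p = 0.0274). Without aerobic reference 3 the change was -0.47 (adjusted p = 0.0605), and leaving out IMZ305 culture 1 or 2 also ended the call. The neighbouring stalk subunit ATP5 (OSCP) had the opposite direction, with 284.3, 211.7 and 257 in the reference and 294.7, 349.2 and 343.2 in IMZ305. The groups did not overlap, and the change of 0.40 (SE 0.16, limma adjusted p = 0.13) was not called. ATP14 read 1263.5, 1333.6 and 1377.5 in IMZ305 and ATP17 663.1, 675.7 and 693.5, both within or across the reference range, with changes of 0.22 (SE 0.22, limma adjusted p = 0.586) and 0.08 (SE 0.12, limma adjusted p = 0.756).

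Complex III had 4 positive and 5 negative changes, and none was called. QCR2 read 757.1, 871.8 and 966 in the reference and 1410.5, 1376.8 and 1134.1 in IMZ305. Every IMZ305 value was higher, and the change was 0.60 (SE 0.20, limma adjusted p = 0.0797). COR1 read 211.7, 396.8 and 299.4 against 489.8, 462.3 and 385.4, overlapping, with a change of 0.60 (SE 0.27, limma adjusted p = 0.177). RIP1 read 2198.2, 1919.9 and 1550.1 against 1298.8, 1278.4 and 1277.1, with every IMZ305 value lower and a change of -0.54 (SE 0.16, limma adjusted p = 0.0536). The RIP1 control probe set went the other way, with 737.7, 850.4 and 903.9 in IMZ305 and a difference of 0.14 in mean log2 signal, inside the reference range. QCR6 was lower on all IMZ305 arrays (log2 change -0.38, SE 0.13, limma adjusted p = 0.0764). QCR7 read 2068.9, 2097.1 and 2240 and QCR9 2013, 1869 and 2090.9 in IMZ305, both overlapping the reference, with changes of 0.10 and 0.07. The most negative change of the 35 was that of the dim QCR8, with 11.4, 24.8 and 28.5 in IMZ305, all below the reference (log2 change -0.98, SE 0.56, limma adjusted p = 0.302). In total 11 of the 35 genes were lower and 4 higher without overlap between the groups, beside 16.6% and 15% of all probe sets.

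Complexes II and IV and the F1 head held no called gene. SDH3 differed in sign from the other 3 subunits of complex II, with 1447.4, 1641.8 and 1591.7 in IMZ305 against 1063.3, 1773.7 and 1451.4 in the reference (log2 change 0.16, SE 0.22, limma adjusted p = 0.716). In complex IV, 3 subunits had positive changes: COX4 with 1232.3, 1220.3 and 1249.5 in IMZ305 (log2 change 0.09, SE 0.12, limma adjusted p = 0.699), COX8 with 1712.5, 1841.2 and 1534.4 (log2 change 0.19, SE 0.14, limma adjusted p = 0.448) and COX7 with 1798.7, 1801.9 and 1863 (log2 change 0.51, SE 0.28, limma adjusted p = 0.275). COX4 did not overlap with the reference, while COX7 and COX8 did. In the F1 head, ATP2 read 1156.2, 1196.1 and 1103.3 in IMZ305, above all 3 reference values (log2 change 0.18, SE 0.23, limma adjusted p = 0.693), and ATP1 read 1070, 1147.2 and 1088.2 (log2 change 0.01, SE 0.08, limma adjusted p = 0.99).

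The pyruvate formate-lyase strain IMZ383 was set against the anaerobic reference. None of the 35 genes was called at an adjusted p under 0.05 by limma, beside 2.29% of all probe sets, 1.69% higher and 0.593% lower (0.938% and 0.787% with median centring, 1.21% and 0.798% with quantile normalization). At an unadjusted p under 0.05 there were 10 of the 35, beside 1426 of all 9275 probe sets tested. The median change was -0.22, beside 0.06 over all probe sets, and 29 of the 35 changes were negative. Of the 35 genes 6 were lower and 1 higher without overlap between the groups, beside 6.98% and 13.4% of all probe sets. For 30 genes the 95% confidence interval lay within 1 log2 unit of 0. The ACT1 ratio was lower on all IMZ383 arrays than on all anaerobic reference arrays, and its part in these values was not tested.

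The external NADH dehydrogenases had the largest changes, in opposite directions. NDE1 read 122.6, 178.5 and 156.5 in the reference and 73.4, 56 and 95.4 in IMZ383. Every IMZ383 value was lower, and the change was -1.04 (SE 0.24, limma adjusted p = 0.0604). NDE2 read 25.2, 20 and 17.3 in the reference and 37.8, 58.2 and 35.7 in IMZ383. Every IMZ383 value was higher, and the change was 1.06 (SE 0.25, limma adjusted p = 0.0711). Both passed when dim probe sets were filtered out or when an intensity trend with a robust prior was fitted, with adjusted p from 0.0261 to 0.0366. NDI1 read 177.8, 222.1 and 236.8, overlapping the reference, with a change of -0.06 (SE 0.16, limma adjusted p = 0.931). SDH4 was lower on all IMZ383 arrays, with 973.5, 761.4 and 775 against 425.1, 627.5 and 557.6 (log2 change -0.65, SE 0.22, limma adjusted p = 0.18).

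Other genes whose sign differed from most of their complex lay near 0 or varied widely. QCR8 read 17.4, 17.1 and 9.8 in IMZ383 (log2 change 0.69, SE 0.56, limma adjusted p = 0.616) and QCR10 179.6, 288.7 and 229.2 (log2 change 0.10, SE 0.27, limma adjusted p = 0.932). COX13 read 412.6, 468.4 and 467.4 (log2 change 0.04, SE 0.16, limma adjusted p = 0.971). In complex V, ATP4 read 328.9, 342.7 and 374.5 (log2 change 0.01, SE 0.15, limma adjusted p = 1) and ATP20 52, 74.4 and 61.7 (log2 change 0.03, SE 0.18, limma adjusted p = 0.996). All these groups overlapped with the anaerobic reference. In complex V, IMZ383 culture 2 was the lowest for ATP2 (607, 349.7 and 735) and for ATP7 (189.7, 114.9 and 214.1), with changes of -0.60 (SE 0.23, limma adjusted p = 0.259) and -0.48 (SE 0.20, limma adjusted p = 0.298).

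The effect of strain in the anaerobic pair was compared with that in the aerobic pair by an interaction term, which contrasts different strains as well as different conditions. NDE2 was called, with a difference of 1.92 log2 units (95% confidence interval 1.12 to 2.73, SE 0.36, limma adjusted p = 0.0113). It was lower in IMZ305 than in its reference and higher in IMZ383 than in its own, and the call held under every alternative tried. No other of the 35 genes was called, beside 8.87% of all probe sets, 5.92% higher and 2.95% lower (3.47% and 3.63% with median centring, 4.85% and 3.74% with quantile normalization). QCR2 came closest, with -1.0 (SE 0.28, limma adjusted p = 0.0597), followed by NDI1 with 0.74 (SE 0.22, limma adjusted p = 0.0722). NDE1 differed by -0.96 (SE 0.34, limma adjusted p = 0.114).

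**Figure D4:**
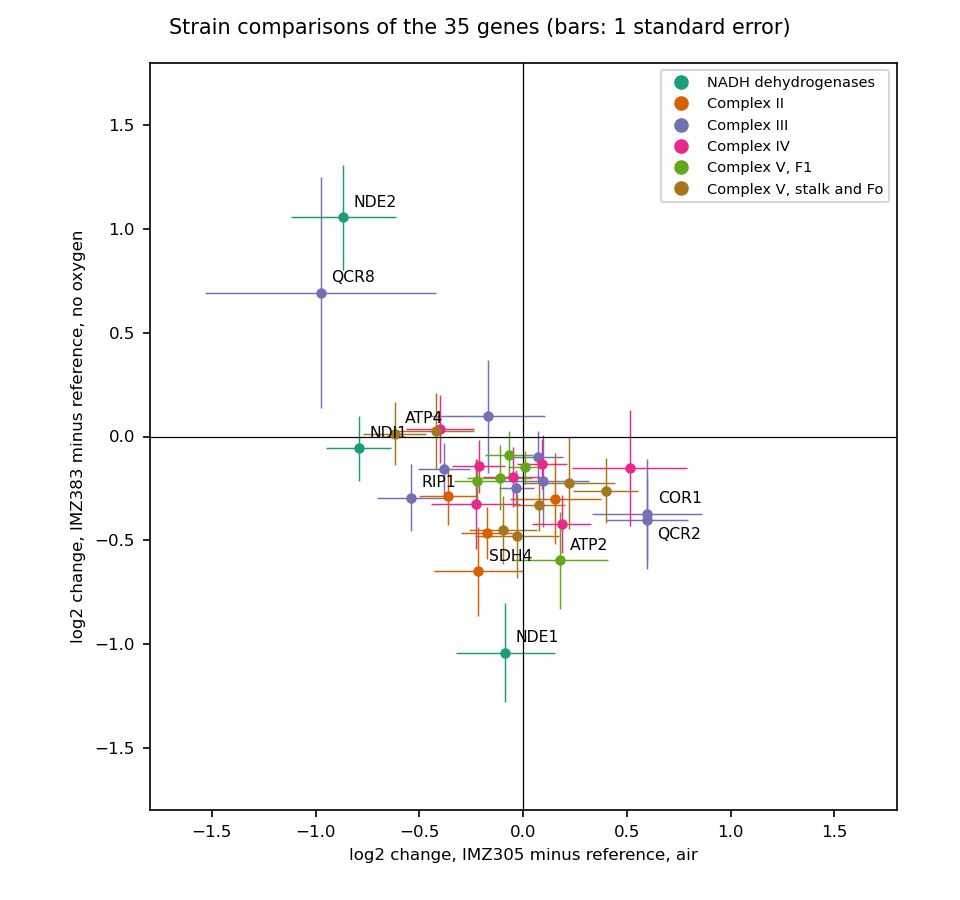
Log2 change of each of the 35 genes in IMZ305 against the aerobic reference (horizontal) and in IMZ383 against the anaerobic reference (vertical), coloured by complex, with bars of 1 standard error from limma (3 cultures a group). These axes share no arrays. NDE2 lies at -0.87 and 1.06, and NDE1 at -0.09 and -1.04.

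Around these subunits, 107 further genes of the pathway were read, of which 106 had a probe set of their own. Calls of single genes were followed through the alternative settings only for the 35 subunit genes. Median centring moved the median of all probe sets in the oxygen comparison from -0.18 to 0.22. Whether the smaller falls among the 106 genes would keep their calls under it was not tested. In the oxygen comparison the small associated subunits and inhibitors followed the same direction, with 5 of 6 called lower and a median change of -1.05. Over all probe sets 23.3% were called lower and 11% higher. COX26, a small protein bound to complex IV, read 1100.4, 812.7 and 718.2 with oxygen and 107.3, 50.3 and 54.3 without and fell 13-fold (log2 change -3.70, SE 0.29, limma adjusted p = 1.53e-05). TIM11, subunit e of the ATP synthase and partner of ATP20 in dimers, fell 2.12-fold (adjusted p = 0.000271). INH1, the inhibitor that blocks ATP hydrolysis by F1, fell 2.54-fold (adjusted p = 0.0011), and its stabilizing partners STF1 and STF2 fell 1.7-fold (adjusted p = 0.0189) and 2.03-fold (adjusted p = 0.000954). ATP19, subunit k, was not called (-0.30).

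COX5 isoforms were called in opposite directions, as were isoforms of the ADP/ATP carrier. CYC1, the main cytochrome c, read 1452.3, 1172.8 and 1625.1 with oxygen and 258.5, 193.9 and 235.5 without and fell 6.17-fold (log2 change -2.62, SE 0.22, limma adjusted p = 2.63e-05). CYC7, the other isoform, was not called (log2 change 0.45, SE 0.23, limma adjusted p = 0.169). COX5A, the aerobic form of a complex IV subunit, went from 1392.5, 1329.6 and 1397.7 to 311.3, 273.4 and 248, 4.97-fold lower (log2 change -2.31, SE 0.11, limma adjusted p = 7.23e-07). COX5B, the form used without oxygen, rose from 12.8, 10.6 and 13 to 72.1, 58.6 and 47.9, 4.86-fold (log2 change 2.28, SE 0.40, limma adjusted p = 0.00192). The succinate dehydrogenase paralogs all fell: SHH3 24.5-fold, from 295.4, 169.3 and 229.6 to 9.5, 9.3 and 8.8 (adjusted p = 2.59e-06), SHH4 7.3-fold (adjusted p = 0.0016) and SDH9 3.81-fold (adjusted p = 6.02e-05). Among the carriers that exchange ADP and ATP, AAC1 and PET9 fell 5.52-fold (adjusted p = 0.000649) and 1.64-fold (adjusted p = 0.00118). AAC3, the anaerobic isoform, read 2, 0.7 and 5.6 with oxygen, not above the non-target controls on any array, and 215, 126.3 and 245.2 without. It was at least 31.4-fold higher without oxygen (adjusted p = 2.21e-05).

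A list of other dehydrogenases, most of which feed the chain, had 4 of 4 genes called lower, beside 23.3% of all probe sets. CYB2, which passes electrons from L-lactate to cytochrome c, went from 1220.2, 1552.9 and 1604.9 to 23.3, 15.7 and 16.6, 79.4-fold lower (log2 change -6.31, SE 0.18, limma adjusted p = 3.16e-08). GUT2, the mitochondrial glycerol-3-phosphate dehydrogenase, fell 7.08-fold (adjusted p = 5.64e-05), and DLD1, a D-lactate dehydrogenase, fell 2.42-fold (adjusted p = 0.00044). URA1, whose enzyme in this yeast reduces fumarate and not quinone, fell 1.34-fold (log2 change -0.43, adjusted p = 0.0365). How far that small fall depends on the scaling of the arrays was not tested. Of 10 genes of ubiquinone synthesis, 3 were called higher and 2 lower, beside 11% and 23.3% of all probe sets. Their median change was -0.02. The hydroxylase genes CAT5 (COQ7) and COQ6 rose 1.98-fold (adjusted p = 0.0114) and 1.78-fold (adjusted p = 0.0173), and the methyltransferase COQ5 rose 1.25-fold (adjusted p = 0.0431). COQ3, another methyltransferase, fell 1.67-fold (adjusted p = 0.0105) and COQ8 fell 1.52-fold (adjusted p = 0.0431).

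Assembly factors are proteins that build the complexes without being part of them. Beside the counts that follow, 23.3% of all probe sets were called lower and 11% higher. For complexes II and III, 6 of 16 fell and none rose, with a median change of -0.54, led by SDH8 (3.32-fold, adjusted p = 2.45e-05), SDH7 (2.43-fold, adjusted p = 7.62e-05) and SDH6 (3.09-fold, adjusted p = 0.000162), which mature the catalytic subunits of complex II. For complex IV, 9 of 28 fell and 2 rose, with a median of -0.43. COA2 fell 8.33-fold (log2 change -3.06, SE 0.21, limma adjusted p = 5.78e-06) and COX20, a chaperone of the COX2 protein, 2.61-fold (adjusted p = 0.000225). SCO1, which delivers copper to the complex, rose 1.78-fold, from 98.8, 95.6 and 109 to 179.3, 175 and 184.7 (adjusted p = 0.000393). PET122, a translational activator of COX3, read 3.3, 1.2 and 3.2 with oxygen, under the non-target controls, and was at least 1.72-fold higher without (adjusted p = 0.0243). For complex V, 9 of 14 fell and none rose, with a median of -0.74. NCA3 and NCA2, needed for normal expression of the mitochondrial ATP6 and ATP8 message, fell 8.4-fold (adjusted p = 2.33e-05) and 5.25-fold (adjusted p = 4.58e-05), and INA17, which helps assemble the peripheral stalk, fell 3.04-fold (adjusted p = 0.000917).

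Of the subunits encoded in the mitochondrial genome none was called lower. By the brightest probe set all 7 had positive changes and 2 were called higher, beside 11% of all probe sets. For 3 of the 7 (COX2, ATP6 and ATP8) no aerobic and only 1 anaerobic reference array was above background, so their direction is not established. Dimmer second probe sets of ATP8 and OLI1 (mean signals 1.75 and 0.46) had negative changes of -0.16 and -0.41, not called. Mean signals in the aerobic reference ran from 0.53 (ATP6) to 2278.5 (OLI1). How well the 3' labelling reads transcripts of the mitochondrial genome was not tested, here or in the strain comparisons. COX3 rose 2.98-fold, from 11.6, 16.8 and 19.4 to 49.1, 51.1 and 40 (adjusted p = 0.00127), and COX1 1.98-fold, from 1177.5, 1146.8 and 724.2 to 2366.8, 1621.3 and 1978.6 (adjusted p = 0.0222). The other COX1 probe sets rose by 2.23 and 2.33 on the log2 scale (adjusted p = 0.000639 and 0.000183). OLI1, the ring subunit of Fo, was not called (log2 change 0.28, SE 0.10, limma adjusted p = 0.0651).

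Of 9 regulators of respiratory and hypoxic genes, 4 fell and none rose, beside 23.3% and 11% of all probe sets. Their median change was -0.73. HAP4, the regulated subunit of the HAP activator complex of respiratory genes, read 358.7, 701.3 and 597.4 with oxygen and 258.3, 237.3 and 220.1 without and fell 2.23-fold (log2 change -1.16, SE 0.22, limma adjusted p = 0.00342). HAP3, a DNA-binding subunit of that complex, fell 2.36-fold (adjusted p = 0.0031), while HAP2 (log2 change -0.73, SE 0.26, limma adjusted p = 0.0608) and HAP5 (-0.05) were not called. ROX1, a repressor of hypoxic genes, fell 2.86-fold (adjusted p = 0.00139). MOT3, another repressor, was dim, with 1 of 3 anaerobic arrays above background, and fell 1.97-fold (adjusted p = 0.0319). HAP1, the heme-responsive activator, had 3 probe sets that differed (0.38, 1.16 and -0.30), and no direction is given for it.

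**Figure D5:**
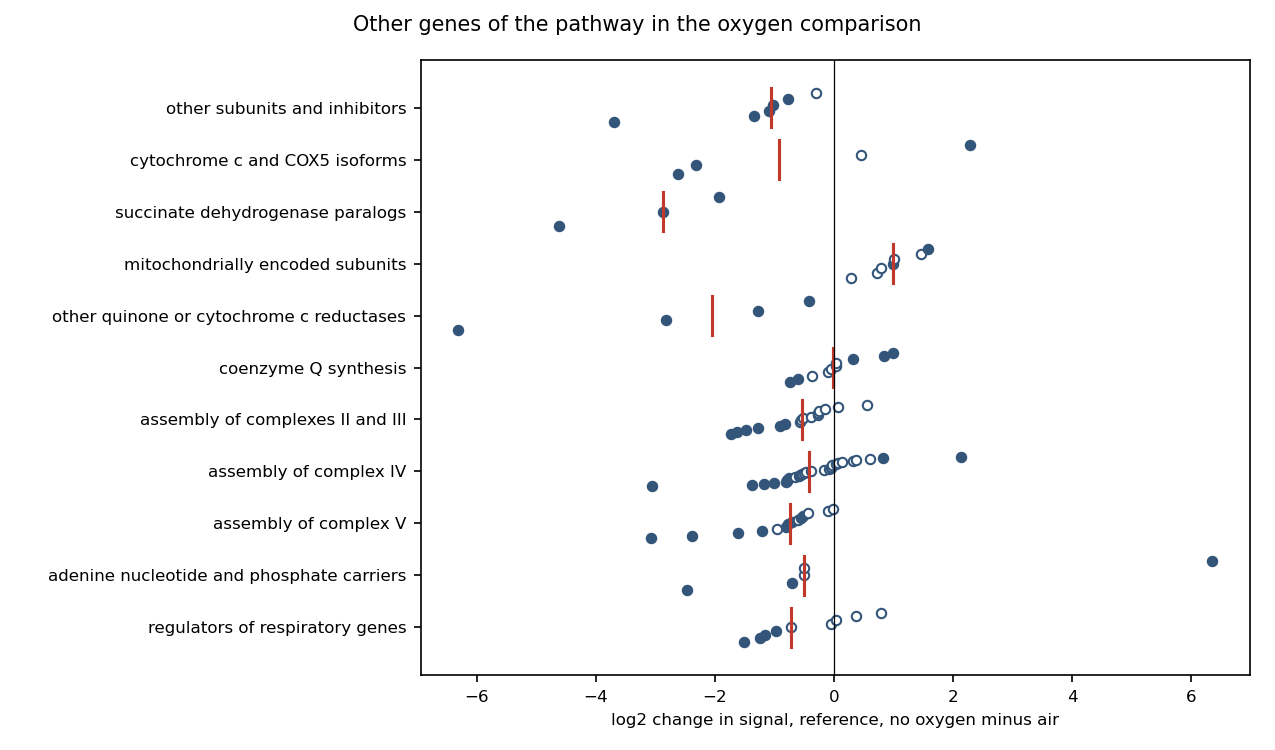
Log2 change, reference without minus with oxygen, of the other genes of the pathway, by list. Points are genes, filled where limma called them at an adjusted p under 0.05, and red bars are list medians. AAC3 lies farthest to the right and CYB2 farthest to the left, and the mitochondrially encoded subunits are the list with all points right of 0. Of that list COX2, ATP6 and ATP8 were near background.

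In IMZ305 with air, 19 of these 106 genes fell and 2 rose, beside 8.3% and 6.09% of all probe sets. STF2 fell 2.46-fold, from 1348.3, 1107 and 1104.2 to 423.8, 450.7 and 577.1 (log2 change -1.30, SE 0.16, limma adjusted p = 0.000959), and COX26 1.99-fold (adjusted p = 0.0491), 2 of 6 in that list. SHH3 and SDH9 fell 3.05-fold (adjusted p = 0.00549) and 1.79-fold (adjusted p = 0.0187), and CYB2 1.74-fold (adjusted p = 0.018). Of the assembly factors, 6 of 28 fell for complex IV, led by PET191 (1.69-fold, adjusted p = 0.00881), COX20 (1.76-fold, adjusted p = 0.0129) and COA4 (2.16-fold, adjusted p = 0.0149). For complex V 4 of 14 fell, NCA3 (2.89-fold, adjusted p = 0.00507), NCA2 (2.41-fold, adjusted p = 0.00641), ATP25 (2.25-fold, adjusted p = 0.00444) and ATP11 (1.5-fold, adjusted p = 0.0437). For complexes II and III 3 of 16 fell, CBP4 (1.93-fold, adjusted p = 0.011), CBS1 (1.71-fold, adjusted p = 0.0362) and SDH7 (1.39-fold, adjusted p = 0.0411). HAP3 was the only called regulator of 9, 1.86-fold lower (adjusted p = 0.036). COX3 rose 2.99-fold, from 11.6, 16.8 and 19.4 to 41.9, 45.7 and 52.8 (adjusted p = 0.00429). COX1 was not called by its brightest probe set (log2 change 0.79, SE 0.28, limma adjusted p = 0.096), while its other probe sets rose by 1.71 and 1.91 (adjusted p = 0.00881 and 0.00232). AAC3 read 11.2, 7.7 and 10.8 in IMZ305, at least 1.63-fold higher (adjusted p = 0.0291). No gene of ubiquinone synthesis (10) or of the cytochrome c and COX5 isoforms (4) was called.

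In IMZ383, 5 of the 106 genes were called, 3 higher and 2 lower, beside 1.69% and 0.593% of all probe sets. NCA3 rose 5.06-fold, from 50, 49.9 and 53.1 to 283, 170.4 and 356.3 (log2 change 2.34, SE 0.25, limma adjusted p = 0.00156). URA1, of pyrimidine synthesis, rose 3.72-fold, from 204.5, 252 and 236.7 to 924, 816.5 and 835.3 (log2 change 1.90, SE 0.14, limma adjusted p = 8.75e-05). SHH3 rose 2.72-fold (adjusted p = 0.0284). DLD1 fell 2.27-fold, from 800.1, 575.2 and 481.7 to 257.3, 254.8 and 289.5 (log2 change -1.18, SE 0.17, limma adjusted p = 0.00776), and PET117, a complex IV assembly factor, fell 2.32-fold (adjusted p = 0.013). The probe sets of HAP1 differed here too, with log2 changes of 0.39 for the brightest, which was not called, and of -0.05 and 0.69 for the others. The last was called higher (limma adjusted p = 0.0436).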

How the data were processed

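Total RNA of 12 cultures was hybridized to 1 Affymetrix 3' array each. Each deposited value is the signal intensity of 1 probe set, not log transformed. Per the labels' protocols, 200 ng of RNA entered a 3' in vitro transcription labelling, and polyadenylated spike-ins were left out. The summary and scaling software and the genome build are not given in the sources used here.

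Of 9335 probe sets, 60 controls were left out and 9275 tested. The platform annotation paired 6504 with 1 gene, 328 with several and 2443 with none; all 35 genes matched the RefSeq gene table. Signals were floored at their 10th percentile (1.1) and log2 transformed. The comparisons used limma 3.58.1 (R 4.3.3), with 1 mean per group over 12 arrays, two-sided moderated tests and Benjamini-Hochberg adjustment over all tested probe sets. "Rose" and "fell" mean an adjusted p under 0.05, and a fold is the log2 change put back on the linear scale. Where no array of a group exceeded its highest non-target control, that control replaced lower signals and the fold is a lower bound ("at least").

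Members, lists and tests were chosen with earlier results of these data known. Per-array values are given for up to 2 called genes per complex and comparison by adjusted p, for all NADH dehydrogenases and for genes whose sign differs from most of their complex. Up to 3 called genes per pathway list are named, and all where 5 or fewer were called. Other values shown, such as those of RIP1, COR1, QCR7, QCR8, COX7, SDH4, ATP2 and ATP7, were chosen after they were seen. P-values set each change against the spread between these cultures, estimated jointly over the 4 groups, although that spread differed between groups. With 3 arrays a group the precision is limited. The fit was tested on simulated data. Sequences and positions were not used here. Alternatives were other normalizations, floors, a filter, other fits and leaving out each array. Calls of single genes were followed through them for the 35 genes only.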

Additional observations from a re-analysis of the deposited data

Results flagged for a closer look

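The strain effect differed between the anaerobic and the aerobic pair, by a limma interaction term at an adjusted p under 0.05, for 1 of the 35 genes and for 12 of the 106 other genes of the pathway, beside 8.87% of all probe sets. NDE2 differed by 1.92 log2 units (adjusted p = 0.0113), with -0.87 in IMZ305 and 1.06 in IMZ383. The 2 pairs differ in strain as well as in oxygen and medium, which cannot be told apart.

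The difference was positive for NCA3 (3.87, adjusted p = 0.000445), SHH3 (3.05, adjusted p = 0.00202), STF2 (1.70, adjusted p = 0.00221), URA1 (1.44, adjusted p = 0.00241), ATP25 (1.27, adjusted p = 0.0202), COA2 (1.23, adjusted p = 0.0323), CYB2 (1.14, adjusted p = 0.0238), PIC2 (1.10, adjusted p = 0.0463) and COX20 (0.93, adjusted p = 0.0403). It was negative for COX3 (-2.36, adjusted p = 0.00475), COX1 (-1.74, adjusted p = 0.0261) and CYC1 (-1.19, adjusted p = 0.0474). CYC1, PIC2 and COX20 lay near the threshold. Unlike NDE2, none of the genes of this paragraph was followed through the alternative settings. The other COX1 probe sets differed by -3.03 and -2.96 (adjusted p = 0.0042 and 0.00218). How well the 3' labelling reads COX1 and COX3, of the mitochondrial genome, was not tested. NCA3 and SHH3 were called lower in IMZ305 and higher in IMZ383. BioB was low on 5 of the 6 aerobic and high on all anaerobic arrays, and its part in these differences was not tested.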

How the results depend on the processing

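In the oxygen comparison the count of genes called lower was 31, and 28 to 33 on leaving out 1 array, with 0 higher each time. Of the 31 calls, 28 held on leaving out any array (all but QCR2, QCR8 and ATP14), 20 also under the other normalizations, floors, filter and fits, and 17 also within the arrays of high BioB. Centring each array on its median moved the median of all probe sets from -0.18 to 0.22 and left 21 calls, with ATP1 at 0.073 (adjusted p = 0.683), and the median of the 35 genes at -0.69. Quantile normalization gave 32 calls. The next probe set of QCR8, below background, changed by 0.38. In IMZ305 the count of 3 lower became 5 with quantile normalization and 1 in a fit to only the 2 groups compared. On leaving out 1 array it was 1 to 3 lower and 0 to 1 higher. In IMZ383, with 0 called, median centring gave 1 lower, and the filter on low signal (the 25th percentile, 6.9) or an intensity trend with a robust prior gave 1 lower and 1 higher each (NDE1 and NDE2). Leaving out 1 array gave 0 to 1 in each direction. For the difference of strain effects, 1 higher and 0 lower gained 1 lower (QCR2) with median centring, with the filter, or with the trend and robust prior. Leaving out 1 array gave 1 to 3 higher (the 3 being NDE2, NDI1 and QCR8, without anaerobic reference 1) and 0 to 1 lower. Of 2812 recomputed values of single genes, 59 no longer passed with their sign kept, and 32 newly passed. A sign changed in 69, of which 2 were called values (ATP1 and QCR8, above) that also no longer passed. RIP1 on its control probe set was 0.14 in IMZ305. The cause of these shifts was not tested. Culture numbers did not pair the samples, since deviations of same-numbered cultures correlated at -0.03 to 0.048. With the number as a replicate block, 30 genes were lower without oxygen, 3 lower in IMZ305 and 0 called in IMZ383, and the difference of strain effects kept 1 higher and 0 lower.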
